A study of Mus musculus with 6 samples.

Results

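The 5 guide-arm microRNAs (miRNAs) of the miR-23, miR-24 and miR-27 clusters were compared between kidneys of 20-month-old and 2-month-old male C57BL/6 mice, a standard inbred laboratory strain. The members were the array entries named mmu-miR-23a-3p, mmu-miR-23b-3p, mmu-miR-24-3p, mmu-miR-27a-3p and mmu-miR-27b-3p (written here without the mouse prefix), 5 of the 1247 mouse miRNAs on the array. The series holds 3 arrays of 20-month kidney and 3 arrays of 2-month kidney, each hybridised with a separate RNA preparation from whole kidney. No treatment or genetic change is named for either group. Which animal each preparation came from is not labelled. The p-values therefore rest on differences among RNA preparations, part of which may be technical. All 3 of the 2-month arrays and 20-month array 1 lay in 1 row of the slide, and 20-month arrays 2 and 3 in a second row. Across the tested miRNAs, 20-month array 1 correlated with the 2-month arrays at 0.991 to 0.993, above its 0.983 and 0.972 with 20-month arrays 2 and 3. In whole tissue, fewer cells of a type and less RNA per cell cannot be told apart.

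A miRNA is cut from a hairpin transcript, and 1 arm of the hairpin, the guide, is usually loaded into the silencing complex. Its seed, bases 2 to 8, pairs with target messenger RNAs and lowers their output. The clusters miR-23a, miR-27a and miR-24-2, and miR-23b, miR-27b and miR-24-1, each give 1 primary transcript with 3 hairpins, and mature miR-24-3p is the same from both. These miRNAs are known from endothelium and vessel growth. miR-27 is also known for restraining fat-cell formation and lipid genes, miR-23a for repressing glutaminase in human cells, and miR-24 for repressing cell-cycle and apoptosis genes.

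In the RefSeq annotation on GRCm38.p6, the hairpins Mir23a, Mir27a and Mir24-2 lie in that order on the plus strand of chromosome 8, within no other annotated gene apart from Mir3074-2, which overlaps Mir24-2 on the minus strand. Mir23b, Mir27b and Mir24-1 lie in that order on the plus strand of chromosome 13 within the span of Aopep, an aminopeptidase gene, and Mir3074-1 overlaps Mir24-1 on the minus strand. The array design names mm9 as its build, so no coordinates are given. The RefSeq mature sequences below, matched for 4 of the 5 members, show how little separates the paralogues, since an array probe has to tell them apart by these bases. They run 5′ to 3′ with the seed in capitals.
miR-23a-3p: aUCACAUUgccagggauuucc
miR-27a-3p: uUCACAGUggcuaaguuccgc
miR-27b-3p: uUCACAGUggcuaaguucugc
miR-24-3p: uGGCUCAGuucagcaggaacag

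miR-27a-3p and miR-27b-3p, of 21 bases each, differ by 1 substitution, C19U, with miR-27a-3p's base first and positions counted from 1 at the 5′ end. They share the first 18 bases and the whole seed, so signal on the probes of one can come from the other. The members also include miR-23b-3p. The seeds of miR-23a-3p and miR-27a-3p begin with the same 5 bases, the longest run those miRNAs share. Among the 1017 array entries with a RefSeq mature sequence, the miR-27 seed occurred in miR-27a-3p and miR-27b-3p alone and that of miR-23a-3p in no other entry. miR-23b-3p is not among those 1017, so its seed was not compared. The miR-24 seed was shared by miR-24-3p, miR-5124b, miR-6369, miR-6410 and miR-6413. Apart from miR-24-3p, none of these entries was well above background on any of the 6 arrays.

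All 5 members were strongly detected at both ages. Each member had 2 probes of 20 spots. On every array 100% of the kept spots of each of these 10 probes were well above background, by the scanner software's mark. Levels are given as log2 of the intensity summed over a member's probes after division by the array's 75th percentile over 315 probes detected on all arrays, so 0 stands for that percentile. Different probes bind with different strength, so levels are compared between ages for 1 miRNA and not between miRNAs.

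Neither guide arm of the miR-23a cluster that has a paralogue passed the threshold. miR-23a-3p stood at 1.59, 1.63 and 1.67 (log2) on the 20-month arrays, against 1.54, 1.43 and 1.59 on the 2-month arrays. The lowest 20-month value and the highest 2-month value met at 1.59, and the other values lay apart. The 20-month mean was 1.63 ± 0.04 and the 2-month mean 1.52 ± 0.08 (SD, n = 3 each). The log2 difference, 20-month minus 2-month, was 0.11 ± 0.08 (SE, 1.08-fold, 95% interval 0.95 to 1.22-fold, limma adjusted p = 0.393). miR-27a-3p stood at 0.92, 0.89 and 0.77 in 20-month kidney, against 0.93, 0.85 and 0.92 in 2-month kidney. Its groups overlapped, with 20-month array 3 the lowest of all. The log2 difference was -0.04 ± 0.08 (SE, 0.97-fold, 95% interval 0.86 to 1.11-fold, limma adjusted p = 0.794).

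The guide arms of the miR-23b cluster did not pass the threshold either. miR-23b-3p stood at 1.73, 1.76 and 1.88 on the 20-month arrays, against 1.77, 1.73 and 1.89 on the 2-month arrays. The groups overlapped almost fully, with 1 high array at each age. Its means were 1.79 ± 0.08 in 20-month kidney and 1.79 ± 0.09 in 2-month kidney (SD, n = 3 each). The log2 difference was -0.0034 ± 0.08 (SE, 1.00-fold, 95% interval 0.87 to 1.15-fold, limma adjusted p = 0.979). miR-27b-3p stood at 0.37, 0.47 and 0.42 in 20-month kidney, against 0.53, 0.55 and 0.58 in 2-month kidney. Every 20-month array lay below every 2-month array, the 1 member of the 5 whose groups did not overlap. Its means were 0.42 ± 0.05 in 20-month kidney and 0.56 ± 0.03 in 2-month kidney (SD, n = 3 each), and the log2 difference was -0.14 ± 0.07 (SE, 0.91-fold, 95% interval 0.81 to 1.02-fold, limma adjusted p = 0.268).

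Groups did not overlap for 30.6% of the 193 tested miRNAs, with higher 20-month values for 10.4% and lower ones for 20.2%, so 1 member of 5 is near that background. The direction of miR-27b-3p depended on the scaling. Scaled to the 75th percentile of every probe, detected or not, its difference was 0.28. It was 0.07 with no scaling and 0.0045 with scaling to the median of detected probes. Less the median of all tested miRNAs, its difference was -0.05. That value repeats by construction under 6 of the 23 alternatives, and under the other 17 it ran from -0.14 to -0.02.

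miR-24-3p, the product of both clusters, stood at 1.98, 2.06 and 2.13 in 20-month kidney, against 2.05, 1.96 and 2.10 in 2-month kidney. The groups overlapped, and its means were 2.06 ± 0.08 in 20-month kidney and 2.04 ± 0.07 in 2-month kidney (SD, n = 3 each). The log2 difference was 0.02 ± 0.08 (SE, 1.02-fold, 95% interval 0.89 to 1.16-fold, limma adjusted p = 0.881). Since Mir24-1 and Mir24-2 yield the same mature strand, the share of each cluster in this signal was not measured.

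**Figure D1:**
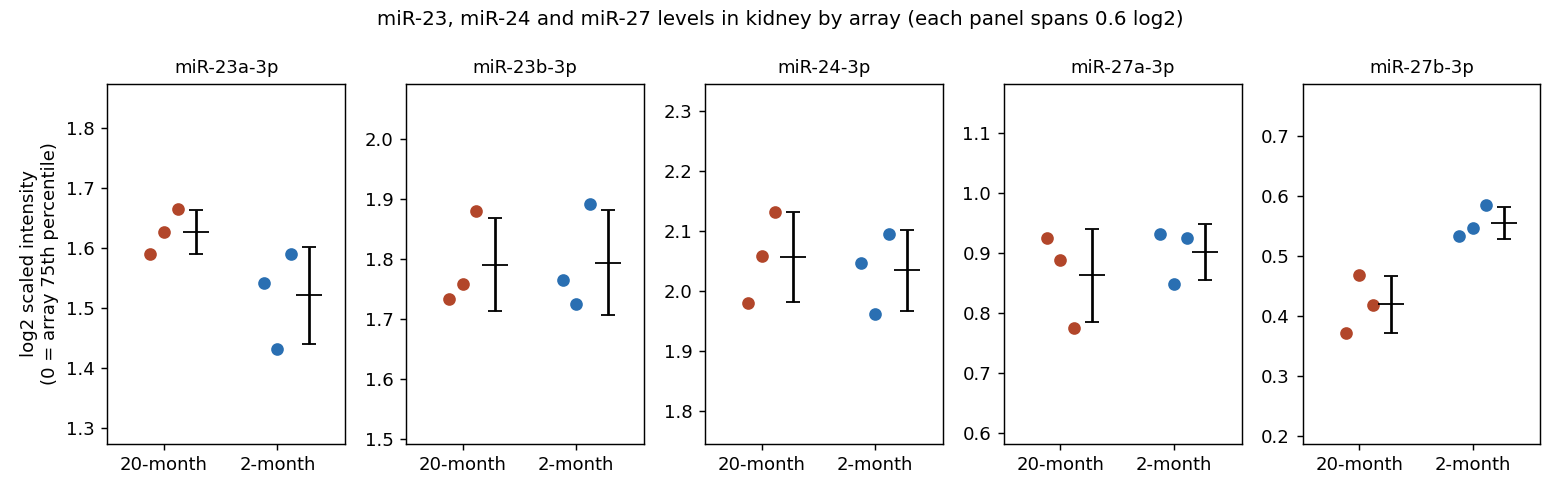
Log2 scaled intensity (vertical axis) of each member on each array, with 20-month kidney left and 2-month kidney right in each panel; points are arrays, and bars show the mean ± SD of 3. The panels share a span of 0.6 but not a range. The 20-month points of miR-27b-3p (0.37 to 0.47) lie below its 2-month points (0.53 to 0.58), and the other 4 members overlap or meet.

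By limma 0 of the 5 members passed the adjusted threshold of 0.05 in either direction, and 0 had an unadjusted p under 0.05. Of all 193 tested miRNAs 15 passed, which is 7.77%, with 4.15% higher and 3.63% lower in 20-month kidney. An unadjusted p under 0.05 was found for 25.4%. The median log2 difference was -0.0034 over the members and -0.08 over all tested miRNAs. Of the members 2 had a difference above 0, as had 65 of the 193 (33.7%). The members' standard errors of 0.07 to 0.08 were below the median of 0.10 over all tested miRNAs, and their 95% intervals spanned 0.17 to 0.20 (log2) on either side. A p that misses the threshold does not show that the ages were alike. The intervals under this scaling reached a 1.22-fold higher level for miR-23a-3p and a level of 0.81-fold for miR-27b-3p. They do not cover the choice of scaling: with the 75th percentile over all probes, the difference of miR-23a-3p was 0.52 (log2).

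**Figure D2:**
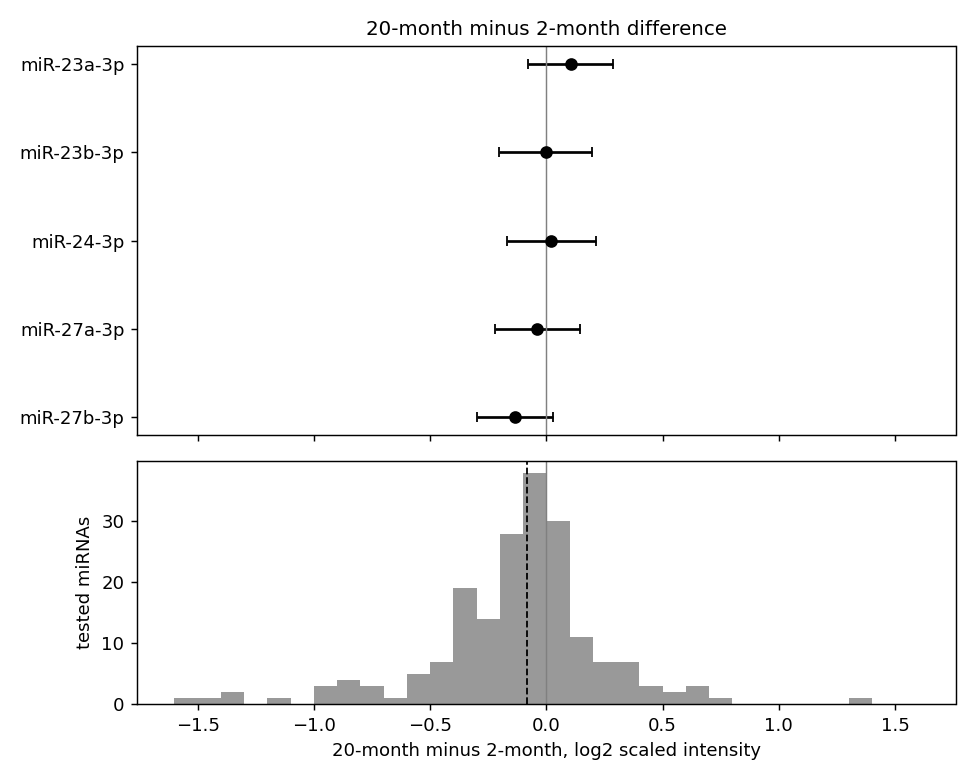
Upper panel: the difference of each member, 20-month minus 2-month kidney in log2 scaled intensity (horizontal axis), with its 95% limma interval. Lower panel: the number of the 193 tested miRNAs at each difference, with a dashed line at their median of -0.08. Every member's interval includes 0.

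The slide rows gave a comparison within and between rows. Within the shared row, 20-month array 1 stood against the 2-month mean at 0.07 (log2) for miR-23a-3p, -0.06 for miR-23b-3p and -0.05 for miR-24-3p. For miR-27a-3p it stood at 0.02 and for miR-27b-3p at -0.18. 20-month arrays 2 and 3, from the other row, averaged 0.12, 0.03, 0.06, -0.07 and -0.11 for the members in the same order. The other row held no 2-month array, so both sets of values use the same 2-month mean, and the later set mixes age with row. The within-row set rests on 20-month array 1 alone. miR-23a-3p stood higher and miR-27b-3p lower in both sets, while the remaining 3 members had opposite signs in the 2 sets.

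The 2 probes of a member differed by up to 0.08 in their age difference, which is more than the size of the difference of miR-23b-3p, miR-24-3p or miR-27a-3p. Probe 1 of miR-23a-3p had a difference of 0.11 and probe 2 of 0.10. The probes of miR-27b-3p differed between ages by -0.15 and -0.07, and neither overlapped between ages. For miR-27a-3p the probes gave -0.02 and -0.05, for miR-24-3p 0.01 and 0.03, and for miR-23b-3p -0.02 and 0.05, with opposite signs. The gap between a member's probes had a median of 0.03 and was largest in miR-27b-3p. Over the 135 miRNAs with several probes detected on all arrays the median gap was likewise 0.03.

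**Figure D3:**
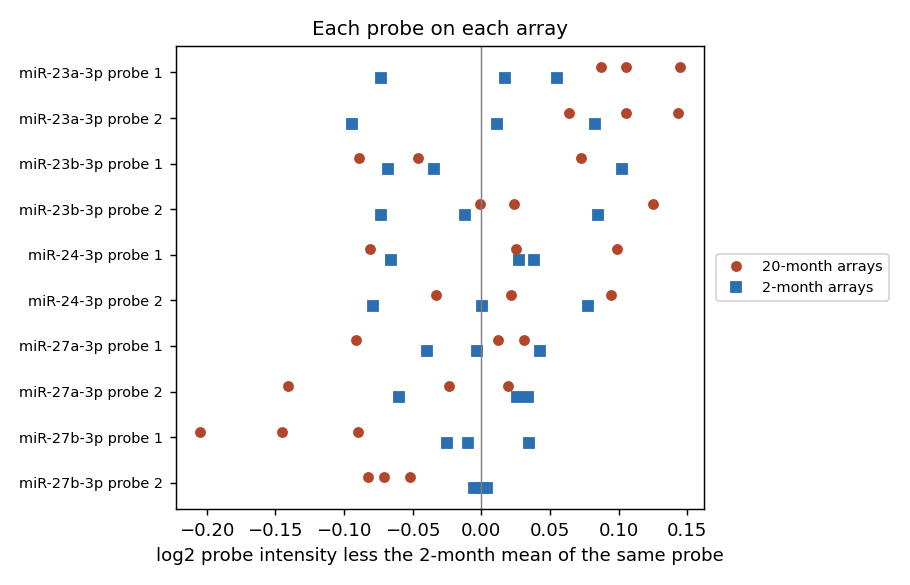
Log2 intensity of each of the 10 member probes on each array, less the 2-month mean of the same probe (horizontal axis); circles are 20-month arrays and squares 2-month arrays. Both probes of miR-27b-3p have all 20-month arrays left of the 2-month arrays, and probe 1 of miR-23a-3p has them to the right.

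The ratio of paralogues within an array does not depend on dividing the array by a constant, and it asked whether the probe signals of the a and b forms moved unequally with age. Signal on the probes of miR-27a-3p can come from miR-27b-3p, and the reverse. The sequences of miR-23a-3p and miR-23b-3p were not compared. How much signal the forms of a pair share on their probes was not tested, for either pair. The log2 ratio of miR-23a-3p over miR-23b-3p was -0.14, -0.13 and -0.21 on the 20-month arrays, against -0.22, -0.29 and -0.30 on the 2-month arrays. The groups did not overlap, and the lowest 20-month ratio lay just above the highest 2-month ratio. Means were -0.16 ± 0.04 in 20-month kidney and -0.27 ± 0.04 in 2-month kidney (SD, n = 3 each). The ratio differed by 0.11, with p = 0.1 in an exact two-sided permutation test, the smallest p that 3 arrays against 3 allow, and 0.2 after adjustment over the 2 pairs.

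For miR-27a-3p over miR-27b-3p the log2 ratio was 0.55, 0.42 and 0.36 on the 20-month arrays, against 0.40, 0.30 and 0.34 on the 2-month arrays. The groups overlapped, and 20-month array 1 was the highest. Means were 0.44 ± 0.10 in 20-month kidney and 0.35 ± 0.05 in 2-month kidney (SD, n = 3 each), a difference of 0.10 (exact two-sided permutation p = 0.2, and 0.2 adjusted). Without 20-month array 1 the difference was 0.04.

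By this exact test neither pair could pass the threshold with 3 arrays an age. The 95% interval of the difference from the pooled SD of the 6 ratios, not adjusted for the 2 pairs, ran from 0.0094 to 0.21 for miR-23 and lay above 0. For miR-27 it ran from -0.08 to 0.27 and included 0. The mean of the a form against its b form was higher in 20-month kidney for both pairs, by 0.11 and 0.10. These sizes lay below the median over all pairs of tested miRNAs, many of which had larger standard errors than the members. Over the 18528 pairs of tested miRNAs the ratio differed between ages by a median of 0.29 in size, and its groups did not overlap for 39.6% of pairs. The ratio of the miR-23 pair did not overlap between ages with normexp background correction, and overlapped with quantile normalization (difference 0.04) and with the mean of log2 over probes (0.09).

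**Figure D4:**
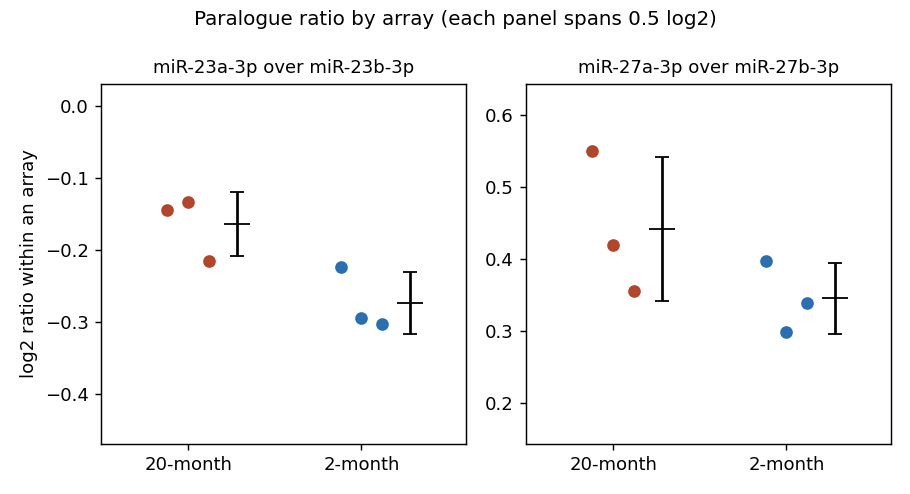
Log2 ratio of the a form over the b form within each array (vertical axis), for miR-23 on the left and miR-27 on the right, with 20-month kidney left and 2-month kidney right in each panel; points are arrays and bars the mean ± SD of 3. The miR-23 ratios of the ages lie apart (-0.21 to -0.13 against -0.30 to -0.22), and the miR-27 ratios overlap.

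The passenger arms, the strands of the hairpin usually discarded, would tell the clusters apart better than the guides. miR-27a-5p and miR-27b-5p differ at 8 of 22 positions. The passenger arms of the hairpins that share miR-24-3p share their first 16 bases and then differ, as printed here with the seed in capitals.
miR-24-1-5p: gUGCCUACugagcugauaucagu
miR-24-2-5p: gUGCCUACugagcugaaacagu

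Their signal was too low for that use. Of the 9 array entries for these arms and for miR-3074, which is read from the strand opposite miR-24, 7 were well above background on no array and 0 could be tested. miR-24-1-5p from chromosome 13 and miR-24-2-5p from chromosome 8 were each well above background on 1 of 3 arrays of 20-month kidney and on 0 of 3 arrays of 2-month kidney. They passed there narrowly, with 52.9% and 55.6% of kept spots marked where over 50% was required. The scanner software's own call marked each as detected on 1 array of 20-month kidney and on 1 of 2-month kidney. miR-23a-5p, miR-23b-5p, miR-27a-5p, miR-27b-5p, miR-3074-5p, miR-3074-1-3p and miR-3074-2-3p were not well above background on any array, which gives no levels. Which cluster the miR-24-3p signal came from was therefore not resolved at this sensitivity.

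The profiles over the 6 arrays, each centred on its own mean, were compared by their distance. The measure was the root mean square (RMS) of the log2 gap between profiles, with a median of 0.25 over all pairs of tested miRNAs. It is not scaled by spread, so miRNAs that vary little lie near each other whether or not they moved together. Widely varying miRNAs raise the median. Among the members it was smallest for miR-23b-3p with miR-24-3p (0.03) and largest for miR-23a-3p with miR-27b-3p (0.13). Each of the paralogue pairs had a gap between these, at 0.07 for miR-23 and 0.08 for miR-27. The nearest miRNA to miR-23a-3p outside the clusters was miR-126-3p, an abundant endothelial miRNA (RMS 0.03), followed by miR-30a-3p and miR-16-5p (0.04 each). miR-23b-3p lay nearest to miR-30a-5p (0.02), miR-425-5p and miR-20b-5p (0.03 each). miR-24-3p lay nearest to miR-16-5p (0.02), miR-30a-5p and miR-20a-5p (0.03 each). miR-27a-3p had looser neighbours, miR-350-3p and miR-101b-3p (0.05 each) and miR-30b-5p (0.06). Those of miR-27b-3p were miR-219-5p (0.03), miR-200a-3p and miR-19b-3p (0.04 each). These profiles share arrays and scaling, so nearness describes these 6 arrays alone.

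The other endothelial miRNAs did not pass the threshold either. miR-126-3p stood at 0.08 ± 0.08 (log2 difference ± SE, limma adjusted p = 0.519), miR-221-3p at 0.13 ± 0.08 (adjusted p = 0.346) and miR-222-3p at -0.001 ± 0.13 (adjusted p = 0.994), so 0 of the 3 tested passed, against 7.77% of all tested. miR-126-5p was not well above background on any array. miR-128-3p, a brain-rich miRNA whose seed is that of miR-27 shifted by 1 base, stood at -0.04 ± 0.11 (limma adjusted p = 0.84).

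The tissue label was checked against marker miRNAs. All 13 miRNAs listed for kidney tubule and other epithelium were detected on every array, while miR-122-5p of liver, miR-133a-3p and miR-208a-3p of muscle, miR-9-5p of brain and miR-375-3p of islets were detected on none. Of the remaining miRNAs of that list, miR-1a-3p of muscle was detected on 2 arrays of each age. miR-124-3p of brain was detected on 3 of 3 arrays of 20-month kidney and on 0 of 3 arrays of 2-month kidney. Set against the lowest signal of a probe well above background on each 2-month array (mean -5.14, log2), miR-124-3p stood 2.45-fold higher in 20-month kidney. That is not a firm bound, since miR-181d-5p, detected on no array, averaged -4.93 on the 2-month arrays. It entered the limma comparison through its 20-month arrays alone, and its 2-month values all stood at the floor of -5.22 (log2). A limma p under the main processing would rest on that floor and is not given. With normexp background correction miR-124-3p did not pass (limma adjusted p = 0.106). Of the entries listed for other cell types and found on the array by name, 3 of 4 erythroid, 5 of 6 leukocyte and 5 of 5 smooth muscle and stromal ones were detected on all arrays. So were 3 of 4 endothelial ones other than the members. In scaled intensity summed over a list, the 4 erythroid entries ranged from 6.40 to 7.20 in 20-month kidney and from 8.40 to 9.42 in 2-month kidney. The 6 leukocyte entries ranged from 1.02 to 1.21 in 20-month kidney and from 0.80 to 0.92 in 2-month kidney. The 5 smooth muscle and stromal entries ranged from 2.80 to 3.05 in 20-month kidney and from 2.38 to 2.52 in 2-month kidney, and the 4 endothelial entries from 7.33 to 7.89 in 20-month kidney and from 6.83 to 7.49 in 2-month kidney. The erythroid sums were lower, and the leukocyte and stromal sums higher, on every 20-month array. The sums were not tested, and groups did not overlap for 30.6% of single tested miRNAs. Limma called 0 of the 3 tested erythroid, 0 of the 5 tested leukocyte and 2 of the 5 tested stromal entries, against 7.77% of all tested. Of the 13 tested epithelial entries it called 0 higher and 1 lower, miR-141-3p (-0.38, limma adjusted p = 0.0415). The epithelial sums overlapped, at 29.73 to 33.70 in 20-month kidney and 30.36 to 34.54 in 2-month kidney. Within the stromal list the entries went both ways. miR-199a-3p, miR-199a-5p, miR-199b-5p and miR-214-3p were higher on every 20-month array, by 0.30 to 0.40 (log2), and limma called 2 of the 4. miR-143-3p, a smooth muscle marker, was lower on every 20-month array (-0.27, limma adjusted p = 0.12), as was its cluster partner miR-145a-5p (-0.25, limma adjusted p = 0.149). The list of 7 named miR-145 without the letter a, and the array has no entry of that name. miR-145a-5p is therefore missing from the stromal counts and sums. The part of these cell types in the members' values was not tested.

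**Figure D5:**
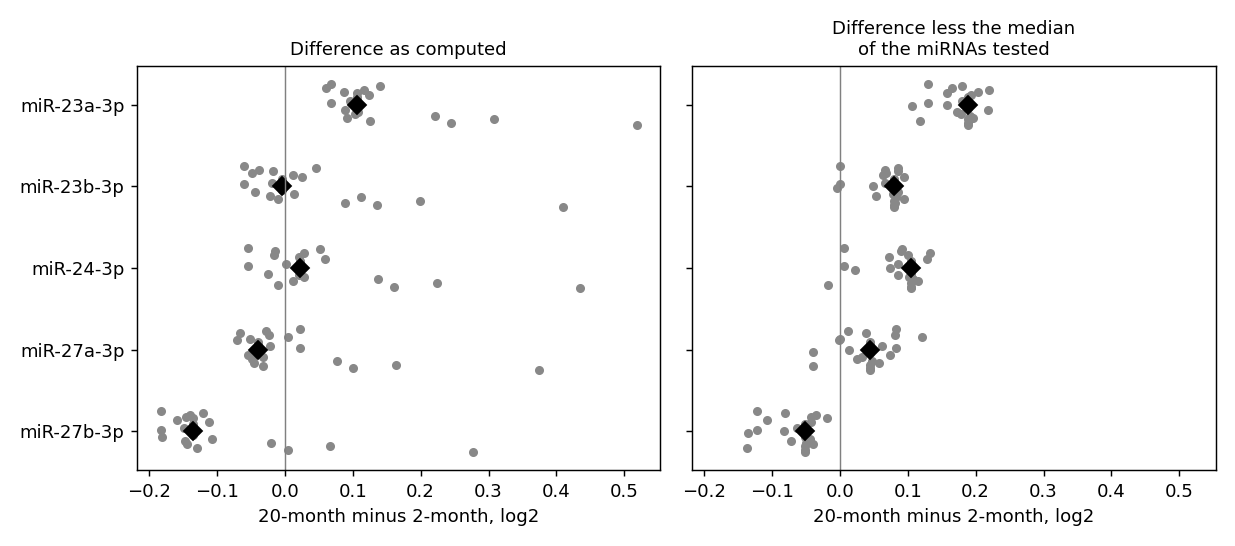
Difference of each member between 20-month and 2-month kidney (horizontal axis, log2) under the main processing (diamond) and 23 alternatives (circles), as computed on the left and less the median of the tested miRNAs on the right. As computed, the values spread up to 0.52 for miR-23a-3p. Relative to that median, miR-23a-3p lies above 0 and miR-27b-3p below 0 under the 17 alternatives that could move these values.

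Scaling each array by a constant moved the members' differences together, and quantile normalization did not. The difference of miR-23a-3p was above 0 under the 18 alternatives that could move it, from 0.06 to 0.52, and passed the threshold under none of all 23 (limma adjusted p from 0.139 to 0.906). In the authors' processed values miR-23a-3p stood at 4.17, 4.36 and 4.29 on the 20-month arrays, against 4.11, 3.96 and 4.10 on the 2-month arrays, without overlap (limma adjusted p = 0.246). In the same values miR-27b-3p stood at 2.95, 3.20 and 3.05 in 20-month kidney, against 3.10, 3.07 and 3.09 in 2-month kidney, and its groups overlapped (limma adjusted p = 0.894). Those values divide each array by a constant that is not explained in the sources used here. Less the median of all tested miRNAs, the differences were 0.19 for miR-23a-3p, 0.11 for miR-24-3p, 0.08 for miR-23b-3p, 0.04 for miR-27a-3p and -0.05 for miR-27b-3p.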

How the data were processed

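Per the labels' protocols, dephosphorylated total RNA (100 ng) received a Cy3 label by ligation and was hybridised to 1-colour Agilent arrays. Design 046065 (build mm9) on 1 slide was read in 1 scan by Feature Extraction 11.5.1.1, per the file headers. The deposited spot values are intensity after the scanner software had removed background, with no scaling across arrays, and each array had 0 saturated spots. The authors' processed table, deposited on a log2 scale, matched log2 of the total signal that the scanner software gives each miRNA, minus a single constant on each array, to within 1e-05 for its 1268 features. Its medians were -9.49, -10.10 and -9.20 on the 20-month arrays and -9.74, -9.21 and -9.21 on the 2-month arrays.

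The intensity deposited by the authors was averaged over a probe's spots without outlier spots, scaled to that array's 75th percentile among 315 probes detected on all arrays (1171 to 2054 intensity units), summed over a miRNA's probes, floored at -5.22 (log2) and log2-transformed. A probe was detected where over 50% of kept spots were well above background, a deposited flag without unit. Arrays had 177 to 206 detected miRNAs in 20-month kidney and 193 to 209 in 2-month kidney, and no 2 arrays of a group were copies (58.4% to 81% of probes differed beyond spot noise). The number of arrays limits the precision.

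The comparison covered 193 miRNAs, those detected throughout 1 group or both. It used limma 3.58.1 (R 4.3.3; group as the single term, moderated by eBayes, Benjamini-Hochberg over all tested, threshold 0.05). The test was checked on simulated data. Paralogue ratios were tested by exact permutation. Named were the members, the other entries of their hairpins, seed mates, the 3 nearest profiles per member, miR-128-3p and 4 endothelial miRNAs. The members, lists and tests were chosen with earlier results of these data known. Alternatives covered scaling, background, probe summary, outliers, floor, filter, slide row, replicate block, prior and arrays left out. normexp used the median spot signal. Figures were drawn with matplotlib 3.10.9.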

Additional observations from a re-analysis of the deposited data

How the results depend on the processing

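Under 23 alternatives, 0 of 115 member values passed the limma threshold, and 25 changed sign. For each member 5 of the 23 repeat the difference by construction, so only 18 could change its sign. In each of 5 alternatives 1 member had an unadjusted limma p under 0.05. In those 5, many of all tested miRNAs had an unadjusted limma p under 0.05. Of 193, these were 35 higher and 12 lower with the median over detected probes, and 32 and 9 with quantile normalization. They were 29 and 10 in the authors' values and 17 and 36 with outlier spots kept. Of 1247 without a detection filter, they were 18 and 36. With the 75th percentile over all probes miR-23b-3p stood at 0.41, miR-27a-3p at 0.37 and miR-27b-3p at 0.28. With the median over detected probes they stood at 0.14, 0.10 and 0.0045, and without scaling at 0.20, 0.16 and 0.067. Quantile normalization gave miR-23b-3p 0.089 and miR-24-3p -0.010, the authors' values miR-23b-3p 0.11 and miR-27a-3p 0.076, the mean of log2 over probes miR-23b-3p 0.014, and keeping outlier spots miR-24-3p -0.024. With slide row as a block, and with 20-month arrays 2 and 3 left out, miR-24-3p stood at -0.054 and miR-27a-3p at 0.023. Those scalings moved the median of all tested miRNAs from -0.08 to 0.33, 0.06, 0.12, 0.01 (quantile) and 0.03 (authors' values). Leaving out 1 array at a time gave -0.048 to 0.046 for miR-23b-3p, -0.015 to 0.060 for miR-24-3p and -0.070 to 0.0049 for miR-27a-3p.

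Counts of higher and lower calls over all tested miRNAs, 8 and 7, became 18 and 3 with the median, 20 and 2 with quantile normalization, 1 and 1 without scaling, 4 and 2 without a detection filter (which also admitted the 9 passenger and miR-3074 entries, 0 of them called by limma or at an unadjusted p under 0.05) and 2 and 3 with slide row as a block, which sets 20-month array 1 alone against the 2-month arrays and assumes that it varies as they do. By limma normexp gave 4 and 0 (9 and 18 at an unadjusted p under 0.05), and the authors' values 0 lower (10 unadjusted). With 1 array left out they ranged from 3 to 12 higher and from 2 to 27 lower: 4 and 2 without 2-month array 1, 3 and 2 without 2-month array 2, 6 and 2 without 2-month array 3, 12 and 27 without 20-month array 1, 5 and 4 without 20-month array 2, 11 and 12 without 20-month array 3. The replicate block gave 2 and 1 and left all 5 members uncalled. Deviations of same-numbered arrays correlated at 0.12, -0.58 and 0.31 across miRNAs, without a common sign, which neither shows nor excludes pairing by number. Of 14 alternatives for the paralogue differences, 3 (authors' values, lower floor, replicate block) repeat the value by construction. Under the other 11 they were above 0, 0.04 to 0.13 for miR-23 and 0.04 to 0.14 for miR-27.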

Other observations

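The nearest other miRNA hairpins to the miR-23a cluster in the RefSeq annotation are Mir181c and Mir181d on the same chromosome, with values looked up after the members' were seen. miR-181c-5p was lower in 20-month kidney, at -4.39, -4.18 and -4.27 (log2) on the 20-month arrays against -3.74, -3.91 and -3.71 on the 2-month arrays. The difference was -0.49 ± 0.09 (SE, limma adjusted p = 0.0258). That call held under 11 of 23 alternatives. It was lost in the authors' processed values (limma adjusted p = 0.229), with normexp (0.364), with each of the other scalings, with slide row or replicate as a fixed block, with no detection filter, and without any 1 of the 2-month arrays. Its difference ranged from -0.60 to -0.08 over the 23, and the limma adjusted p from 0.00915 to 0.906. In comparison, miR-23a-3p stood at 0.11 ± 0.08 and miR-27a-3p at -0.04 ± 0.08. The difference between these neighbours was not tested. miR-181d-5p and miR-181c-3p were not well above background on any array. The lower value was not particular to miR-181c-5p within the miR-181 family. miR-181a-5p (-0.47, limma adjusted p = 0.053) and miR-181b-5p (-0.52, limma adjusted p = 0.079) were also lower on every 20-month array, though limma called neither.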
